A study of Mus musculus with 5 samples.

Results

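The genes described here encode 10 neuropeptide precursors of autonomic neurons, chosen by name: *Npy*, *Gal*, *Vip*, *Sst*, *Tac1*, *Calca*, *Adcyap1*, *Penk*, *Cartpt*, and *Nmb*. Of these, 9 were found by Ensembl identifier among the 20224 genes of the count table, and the expression of *Tac1* was not analysed here. After the filter on low counts, 8 of the 9 were tested with edgeR, and *Penk* did not pass. The data are RNA-seq counts from 5 libraries of neurons sorted from the sympathetic ganglia of E14.5 mouse embryos, 100 cells per library. Cells were taken as positive for eGFP driven by the peripherin gene (*Prph*) and for tdTomato, the Ai14 reporter at the *Rosa26* locus that Cre switches on. All embryos of both groups carried *Isl1-Cre*, a Cre knocked into 1 *Isl1* allele, together with *tdTomatoAi14* and *Prph-eGFP*. The 2 control libraries (replicates 5 and 6) came from *Hif1a* loxP/+ embryos, which have 1 floxed allele exposed to Cre, and the 3 *Hif1aCKO* libraries (replicates 3, 4, and 5) from *Hif1a* loxP/loxP embryos. The labels describe other controls of the line as lacking *Isl1-Cre*, but the sorted cells had to be tdTomato-positive. The floxed segment is exon 2 of *Hif1a*, and Cre acts in every cell with an *Isl1* history, not in sympathetic neurons alone. The pregnancies were non-diabetic, and littermate embryos were used, but the sources used here do not give the litter of each library or state whether embryos were pooled.

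Neuropeptides are made as longer precursors, cut and often amidated inside dense-core vesicles, and released beside the fast transmitter of the neuron. In sympathetic ganglia neuropeptide Y accompanies noradrenaline in most neurons that serve vessels and the heart. The smaller cholinergic class, which serves sweat glands and periosteum, is known for vasoactive intestinal peptide, somatostatin in the embryo, and calcitonin gene-related peptide. Cytokines that act through the LIF receptor favour the cholinergic set and reduce the noradrenergic set. During development many young sympathetic neurons carry genes of both classes before they separate.

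The stretches printed here lie just before the RefSeq starts of 5 of the genes, and they are shown because they hold short elements that bear on this family or on the deleted factor. The window searched was the 250 bases before each gene start in RefSeq (GRCm38.p6), on both strands, and 9 of the 10 genes had one. *Penk* had no entry. The sequence TGACGTC, the core of the element bound by cyclic AMP response factors, stood in the windows of 4 genes: *Cartpt*, *Sst*, *Vip*, and *Adcyap1*. Over all 27025 genes with a window, 3.16% held it. In *Cartpt* and *Sst* it was the full palindrome TGACGTCA, which 1.77% of genes held and which contains TGACGTC on both strands. Each line gives the gene strand from 5′ to 3′, with TGACGTC in capitals.
*Cartpt*: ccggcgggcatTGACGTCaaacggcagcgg
*Sst*: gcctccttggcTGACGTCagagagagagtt
*Vip*: gatcactactgTGACGTCtttcggggagcc
*Adcyap1*: gactaggatgcTGACGTCttttactgatac
The elements began 112, 48, 79, and 91 bases before the annotated starts of *Cartpt*, *Sst*, *Vip*, and *Adcyap1* (for *Adcyap1* its upstream start). In the GENCODE annotation the *Cartpt* stretch lies within the first exon of the transcript Cartpt-202 and the *Sst* stretch within an exon that begins further upstream. The printed stretches are chr13:99900777-99900806 (minus strand), chr16:23890874-23890903 (minus strand), chr10:5639128-5639157 (plus strand), and chr17:93198915-93198944 (plus strand).

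ACGTG and GCGTG, the forms of the core that HIF-1 binds, were searched because *Hif1a* is the deleted gene. ACGTG stood in the windows of 2 members, *Adcyap1* and *Tac1*, against 18.5% of all genes. GCGTG stood in those of 4 members, *Npy*, *Nmb*, *Sst*, and *Tac1*, against 30.9% of all genes. The *Npy* stretch is shown from 60 bases before its GCGTG (in capitals) up to the base before the gene start, chr6:49822585-49822709 on the plus strand, and its element begins 65 bases before the start.
*Npy*: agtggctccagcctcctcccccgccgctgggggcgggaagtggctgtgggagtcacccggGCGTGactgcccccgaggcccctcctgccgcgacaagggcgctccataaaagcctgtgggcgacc
Neither form was found in the windows of *Cartpt*, *Vip*, *Gal*, or *Calca*. These matches describe letters in a window and were not measured as bound sites.

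Library totals ranged from 8254211 to 9700887 counts on genes. *Hif1a* had between 1708 and 2562 counts in every library. These counts are summed over all exons, so they could not show the loss of exon 2. Among the sympathetic neuron markers, *Th*, *Dbh*, *Gata3*, and *Isl1* each had at least 1517 counts in all 5 libraries. Markers of other cell types were low with exceptions. CPM here are counts per 1 M counts of the library, with the library total scaled by its TMM factor. The Schwann cell precursor markers summed to 130.5 CPM in *Hif1aCKO* replicate 3 and to between 3.49 and 6.30 in the other libraries. The high sum came mostly through *Fabp7*, with 926 counts in that library and at most 9 elsewhere. Chromaffin cell markers summed to between 443 and 627 CPM, motor neuron markers to between 34.0 and 101.4, and mesenchyme, endothelium, and erythroid markers to at most 4.34 each. Among the chromaffin markers *Pnmt* had between 3 and 55 counts, whereas *Chga* had at least 2161. Only 2 of the 5 motor neuron markers were in the count table, *Chat* and *Slc18a3*, which are also read below as cholinergic genes. Sensory neuron markers summed to between 66.8 and 110 CPM, mostly from *Prrxl1*, while the defining *Pou4f1* had at most 5 counts. *Xist* was at 3974 and 4597 counts in control replicate 5 and *Hif1aCKO* replicate 3 and at most 3 in the other libraries, so both genotypes held both *Xist* classes.

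*Cartpt*, the precursor of the CART peptides, had the highest level per length of the 9 genes in each of the 5 libraries, and *Npy* the second highest. Levels are compared between genes as these TMM-scaled CPM divided by the exonic length in kilobases (CPKM). *Cartpt* was at 683.6 and 557.7 CPKM in the controls (replicates 5 and 6), with 1200.5, 1009.8, and 1607 in the mutants (replicates 3, 4, and 5). *Npy* was at 488.6 and 521.8 in the controls and 257.2, 426.2, and 431.8 in *Hif1aCKO* neurons. Even the lowest *Cartpt* library lay above the highest *Npy* library, and the lowest *Npy* library above the highest *Vip* library (139.3). *Vip* averaged 105.3 over the 5 libraries, *Sst* 85.4, and *Gal* 43.6. These neighbours overlapped in range, since *Sst* exceeded *Vip* in control replicate 6 (119.6 against 61.3 CPKM), although *Sst* was above *Gal* in all 5 libraries. *Nmb* followed at a mean of 3.85 and *Calca*, *Adcyap1*, and *Penk* averaged 1.44, 1.17, and 0.768 with overlapping ranges.

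**Figure D1:**
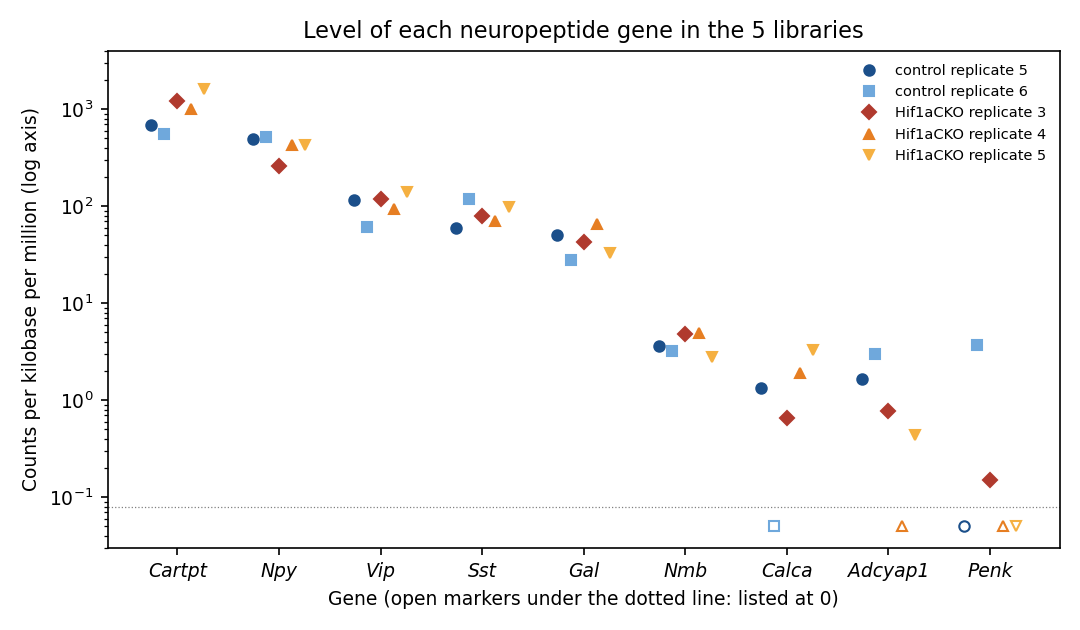
Level of the 9 neuropeptide genes in each library, in CPKM (CPM divided by exonic kilobases) on a log axis, with 1 marker per library and open markers for libraries listed at 0. *Cartpt* and *Npy* lie above the other genes in all 5 libraries, 5 genes lie above 27 in every library, and *Calca*, *Adcyap1*, and *Penk* each have at least 1 library at 0.

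The length of *Cartpt* used here, 1277 bases, includes a long first exon of the transcript Cartpt-202. With the 827 bases of Cartpt-201 alone its levels would be 1055 and 861.2 in control and 1854, 1559, and 2482 CPKM in *Hif1aCKO* libraries. The place of *Cartpt* in the order does not depend on this choice. The order of *Npy* and *Vip* rests on their lengths, 566 and 3402 bases, and other lengths were not tried for them. Before division by length, the ratio of *Vip* to *Npy* counts was 1.41 and 0.706 in control replicates 5 and 6. It was 2.74, 1.32, and 1.94 in *Hif1aCKO* replicates 3, 4, and 5. For scale, *Dbh*, the enzyme that makes noradrenaline, averaged 241.7 on the same per-length scale, below *Npy* and above *Vip*. The 9 genes together took 0.161% and 0.131% of all counts in the controls and 0.216%, 0.202%, and 0.292% in the *Hif1aCKO* libraries.

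*Cartpt* (ENSMUSG00000021647, chromosome 13, 99898489 to 99901091, GRCm38) was 2.05 times as high in *Hif1aCKO* as in control neurons. Control replicate 5 had 7650.5 and control replicate 6 had 6243 normalized counts, which are counts scaled to the mean library size. *Hif1aCKO* replicate 3 had 13438, replicate 4 had 11309.9, and replicate 5 had 17992. All 3 mutant libraries lay above both controls, the lowest of them 1.48 times the higher control. The group means were 6947 ± 995 (SD, n = 2) and 14247 ± 3414 (SD, n = 3), and the log2 fold change was 1.04 (standard error 0.196, interval 0.58 to 1.49 at 95% confidence). *Cartpt* was the single neuropeptide gene with an unadjusted p-value under 0.05 (0.000710 in the edgeR quasi-likelihood fit), where 7.67% of all 15032 genes tested had one (3.83% higher in the mutants). After Benjamini-Hochberg adjustment over all genes the edgeR value was 0.562, so the difference did not pass, and 0% of genes passed in this fit. DESeq2, whose calls made up 0.388% of the genes it adjusted, gave *Cartpt* an adjusted p-value of 0.000168 and called it. In simulated counts with 200 genes changed 2-fold, DESeq2 called 61 of them and also 15 unchanged genes. The likelihood ratio test of edgeR called it too, with an adjusted p-value of 0.0110. Leaving out each library in turn kept the log2 fold change between 0.83 and 1.19.

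Within the libraries of high *Xist* the *Cartpt* count was 7650.5 in control replicate 5 and 13438 in *Hif1aCKO* replicate 3. Within those of low *Xist* it was 6243 in control replicate 6 and 11309.9 and 17992 in *Hif1aCKO* replicates 4 and 5, so the direction was the same in both classes. Proliferation markers had the same direction. All 8 of them were higher in *Hif1aCKO* neurons, 6 with an unadjusted p-value under 0.05 (3.83% of all genes tested in that direction). The edgeR fit called 0 of them and DESeq2 called 4, *Mki67*, *Ccnb1*, *Cenpf*, and *Plk1*. Their sum was 1980 and 1764 CPM in the controls against 2615, 3174, and 2596 in the mutants. Their part in the *Cartpt* difference was not tested. In bulk counts a larger share of *Cartpt* cells and more *Cartpt* RNA per cell cannot be told apart, and the same holds for every gene below.

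**Figure D2:**
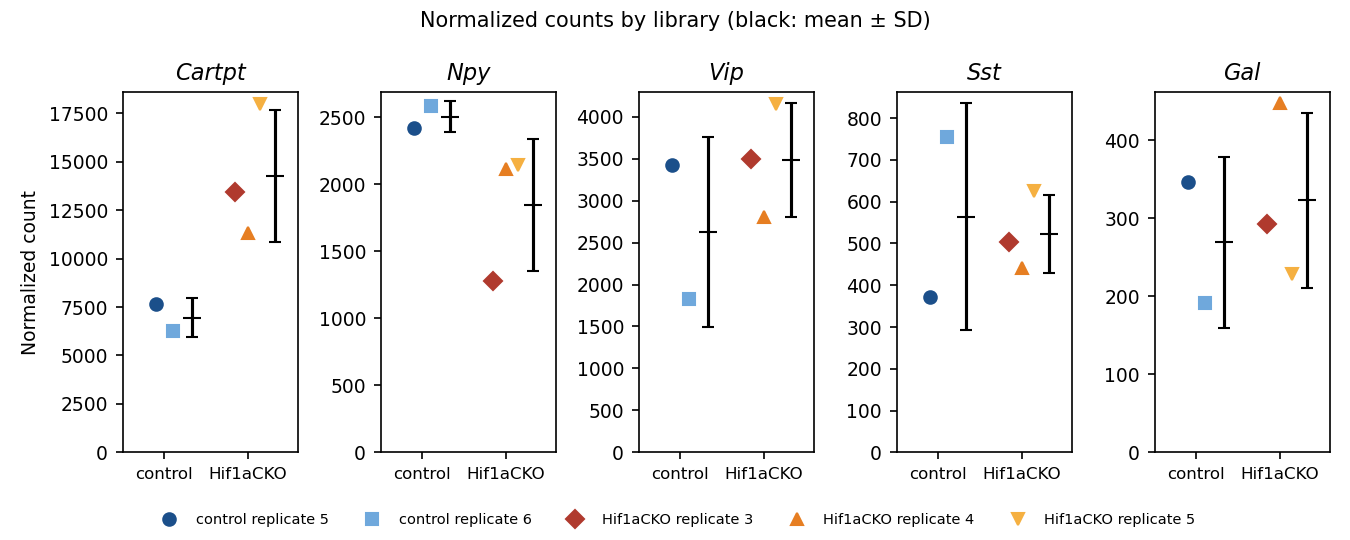
Normalized counts of the 5 most abundant neuropeptide genes by library, on axes that start at 0, with the group mean and SD in black (n = 2 control and n = 3 *Hif1aCKO* libraries). Groups do not overlap for *Cartpt* and *Npy*, whereas at least 1 control lies within or beyond the *Hif1aCKO* range for *Vip*, *Sst*, and *Gal*.

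*Npy* (ENSMUSG00000029819, chromosome 6, 49822710 to 49829507), whose peptide is released with noradrenaline and constricts vessels, lay the other way. Control replicate 5 had 2424 normalized counts and replicate 6 had 2589, whereas the mutants had 1276, 2116, and 2143 (replicates 3, 4, and 5). The mutant libraries all lay below both controls, but the gap was small for replicates 4 and 5, since the lower control was 1.13 times the higher mutant library. The log2 fold change was -0.44 (standard error 0.225, 95% interval -0.96 to 0.08), with an unadjusted p-value of 0.0846 and an adjusted p-value of 0.698 in the edgeR fit. Without *Hif1aCKO* replicate 3 the log2 fold change was -0.24. That library also had the high sum of Schwann cell precursor markers, and a link to its *Npy* level was not tested.

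*Gal* (ENSMUSG00000024907, chromosome 19, 3409915 to 3414544) encodes galanin, which sympathetic neurons raise strongly after axon injury. It had 346.8 and 192 normalized counts in the controls and 292.7, 447.4, and 228.7 in the mutants, with overlapping groups. The controls alone differed by 1.81 times. Its log2 fold change of 0.26 (95% interval -0.58 to 1.11, adjusted p = 0.905 in the edgeR fit) turned negative without control replicate 6 (-0.11) or without *Hif1aCKO* replicate 4 (-0.05).

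*Vip* (ENSMUSG00000019772, chromosome 10, 5639218 to 5647617), the peptide gene of cholinergic sympathetic neurons, was well expressed in both groups. Control replicate 5 had 3425 normalized counts and replicate 6 had 1828, whereas the mutants had 3497, 2802, and 4155 (replicates 3, 4, and 5). Control replicate 6 was the lowest library, while control replicate 5 lay inside the range of the mutants. The log2 fold change was 0.41 (standard error 0.270, 95% interval -0.21 to 1.03, adjusted p = 0.747, edgeR fit), and it was 0.02 without control replicate 6 and 0.93 without control replicate 5.

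*Sst* (ENSMUSG00000004366, chromosome 16, 23889573 to 23890958), the somatostatin gene, had the widest gap between the 2 controls among the abundant genes. It was at 371.8 normalized counts in control replicate 5 and 755.9 in replicate 6, a 2.03-fold gap that enclosed all *Hif1aCKO* libraries (503.9, 441.4, and 624.7). Its log2 fold change of -0.11 (95% interval -0.81 to 0.60, adjusted p = 0.961, edgeR fit) became 0.49 without control replicate 6. The ratio of *Vip* to *Sst* counts was 9.21 in control replicate 5 and 2.42 in control replicate 6. It was 6.94, 6.35, and 6.65 in *Hif1aCKO* replicates 3, 4, and 5. *Vip* and *Sst* thus did not follow each other between the controls, whereas their ratio was nearly steady in the mutants.

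*Calca* (ENSMUSG00000030669, chromosome 7, 114631478 to 114636357) yields calcitonin or calcitonin gene-related peptide by splicing, and counts per gene cannot tell these apart. It had 19 and 0 counts in the controls and 9, 28, and 50 in the mutants. The groups overlapped and 3 of 5 libraries reached 10 counts, and a count of 0 allows up to 3 counts. Its fitted log2 fold change of 1.54 had an interval from -1.78 to 4.86 (95%) and depends on the prior count, because 1 control was at 0. It was 0.53 without control replicate 6, 7.87 without control replicate 5, 0.93 without *Hif1aCKO* replicate 5, and 3.15 with limma-voom.

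*Adcyap1* (ENSMUSG00000024256, chromosome 17, 93199017 to 93206537) encodes PACAP, a transmitter of the preganglionic neurons that synapse on these cells. It had 52 and 107 counts in the controls and 24, 0, and 15 in the mutants. The controls lay above all mutant libraries, the lower control being 2.10 times the highest mutant library in normalized counts. Control libraries averaged 76.7 ± 31.9 normalized counts (SD, n = 2) and mutant libraries 13.4 ± 12.9 (SD, n = 3), with an unadjusted p-value of 0.0574 and an adjusted p-value of 0.664 in the edgeR fit. The fitted log2 fold change was -2.51 (95% interval -5.13 to 0.11), and it too depends on the prior count. It was -3.37 without *Hif1aCKO* replicate 3, -1.93 without *Hif1aCKO* replicate 4, and -3.72 with limma-voom.

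*Penk* (ENSMUSG00000045573, chromosome 4, 4133531 to 4138819), the enkephalin precursor, had 57 counts in control replicate 6, 2 in *Hif1aCKO* replicate 3, and 0 in the other 3 libraries. Nearly all of its counts thus came from 1 library. It was left out of the edgeR fit by the filter on low counts, and DESeq2 gave it an adjusted p-value of 0.418. An antisense gene, *A830012C17Rik*, shares 14.3% of its exonic bases, and the default counting that the authors name does not use strand, so reads on these bases cannot be assigned to 1 of the genes. *Nmb* (ENSMUSG00000025723, chromosome 7, 80902227 to 80905076), the precursor of the bombesin-like neuromedin B, had 24 counts in both controls and 31, 34, and 20 in the mutants. Its log2 fold change was 0.29 with a 95% interval from -1.32 to 1.90, and *Sec11a* on the same strand shares 20.6% of its exonic bases.

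Of the 8 genes tested, 5 had a positive and 3 a negative log2 fold change, with a median of 0.28 against 0.01 over all 15032 genes. The edgeR fit called 0 of the 8 after adjustment, and 1 had an unadjusted p-value under 0.05. DESeq2 called 1, and so did the likelihood ratio test, *Cartpt* in both. The groups did not overlap for 3 of the 8, higher in the mutants for *Cartpt* and lower for *Npy* and *Adcyap1*, against 25.7% over all genes tested (12.9% in each direction). A median over these 8 genes describes no common shift, because *Cartpt* and *Npy*, the 2 with the highest level per length, lay in opposite directions.

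**Figure D3:**
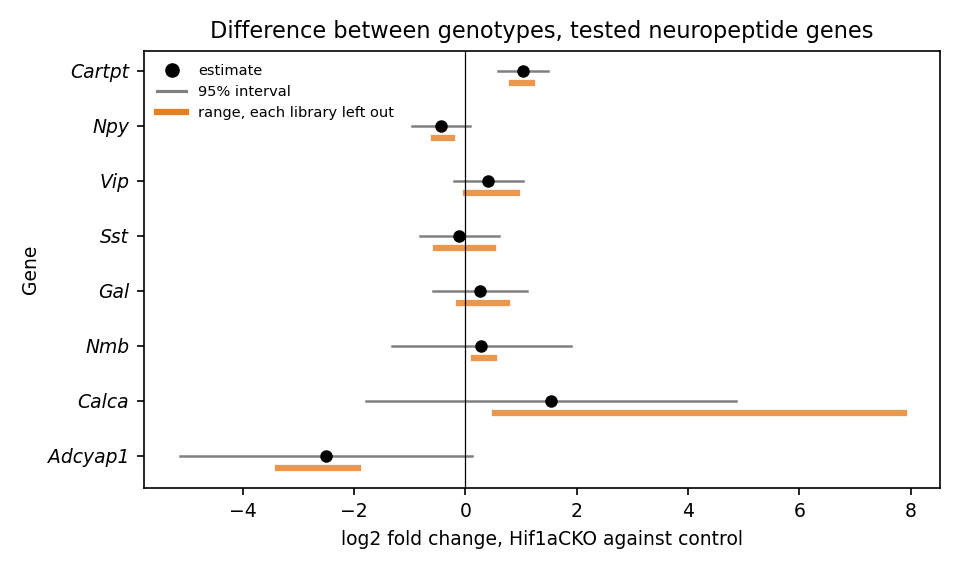
Log2 fold change of *Hif1aCKO* against control for the 8 tested neuropeptide genes (points), with the 95% interval of the edgeR fit (grey) and the range of estimates when each library is left out in turn (orange). The interval of *Cartpt* (0.58 to 1.49) lies above 0, the other 7 intervals include 0, and the orange ranges of *Gal* and *Sst* cross 0.

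The make-up of the neuropeptide counts does not depend on library size. The shares are bound together, so a larger share of *Cartpt* lowers the others even at equal counts. *Cartpt* held 53.4% of the counts of the 9 genes in control replicate 5 (95% Wilson interval 52.6 to 54.3) and 53.0% in replicate 6 (52.1 to 53.9). In *Hif1aCKO* replicates 3, 4, and 5 it held 70.4% (69.8 to 71.1), 65.8% (65.1 to 66.5), and 71.3% (70.8 to 71.9). These intervals cover counting error only. *Npy* held 16.9% and 22% in the controls and 6.69%, 12.3%, and 8.49% in the mutants, although its counts in control replicate 5 (2327) and *Hif1aCKO* replicate 5 (2202) were close. The share of *Vip* was 23.9% and 15.5% in the controls, which enclosed the mutant shares of 18.3%, 16.3%, and 16.5%. The ratio of *Cartpt* to *Npy* counts was 3.16 and 2.41 in the controls against 10.5, 5.34, and 8.40 in the mutants. This ratio, like that of *Vip* to *Sst*, was chosen after the values were seen and has no test.

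**Figure D4:**
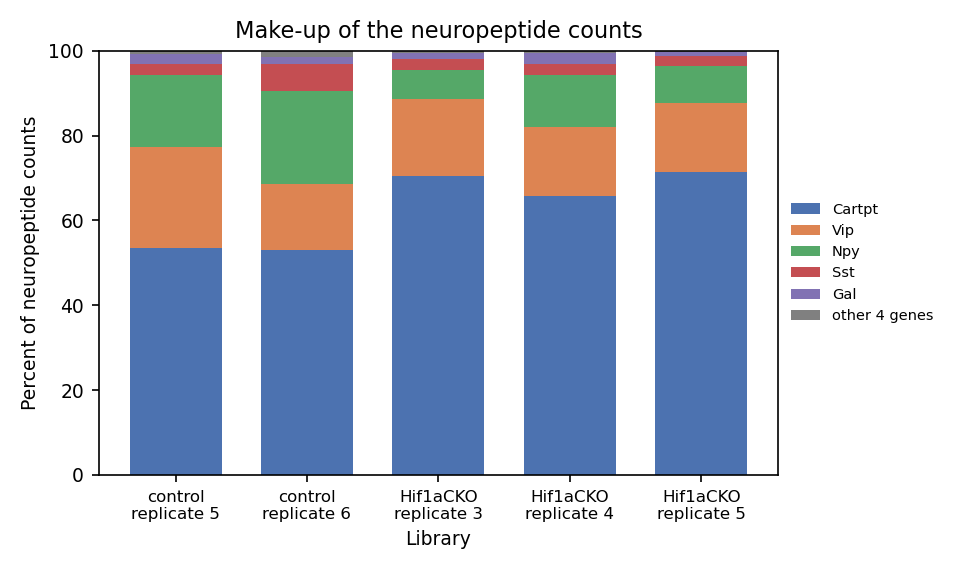
Share of each gene among the counts of the 9 neuropeptide genes, in percent, as 1 stacked bar per library. *Cartpt* makes up 53.0% to 53.4% in the controls and 65.8% to 71.3% in *Hif1aCKO* libraries, while the share of *Npy* is smaller in every *Hif1aCKO* library than in both controls.

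For the 3 most abundant members, the genes with the nearest pattern over the 5 libraries were found by the root mean square difference of mean-centred log2 CPM, among 10841 genes. For *Cartpt* these were *Adcy5* (0.0729), an adenylyl cyclase, and *Paxip1* (0.0784), where the median gene was at 0.615. For *Npy* they were *Pde1b* (0.0681), a calcium-dependent phosphodiesterase, and *Ypel4* (0.0698), against a median of 0.450. For *Vip* they were *Lix1* (0.0668) and *Phf10* (0.0819), against a median of 0.489. The smallest of 10841 distances over 5 libraries lies far below the median by construction, so these matches are a description only. *Adcy5* had only 34 to 100 counts per library. No link between these genes and the members was tested.

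The noradrenergic transmitter genes, which *Npy* accompanies, all lay on the lower side in the mutants. Each of the 6 had a negative log2 fold change, with a median of -0.29, and in 5 of 6 the groups did not overlap (12.9% of all genes tested in that direction). Unadjusted p-values under 0.05 were found for 3 of the 6, all lower (3.85% of all genes tested), and 0 passed after adjustment. *Th*, the first enzyme of the pathway, had 2998 and 6985 normalized counts in the controls and 1682, 1515, and 2582 in the mutants. The difference was -1.37 ± 0.347 on the log2 scale (estimate ± standard error, adjusted p = 0.586, edgeR fit), and the 2 controls were far apart. *Slc18a2*, the vesicular monoamine transporter, had a log2 fold change of -0.58 and *Dbh* one of -0.32, both with an adjusted p-value of 0.621 in the edgeR fit.

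Among the cholinergic genes and cytokine receptors, which are the setting of *Vip*, 3 of 8 were higher and 5 lower, and the edgeR fit called 0. *Slc18a3*, the vesicular acetylcholine transporter, had 611.4 and 839.4 normalized counts in the controls and 285.2, 265.6, and 524.5 in the mutants, without overlap. Its difference was -1.02 ± 0.317 on the log2 scale (estimate ± standard error, unadjusted p-value 0.0122, adjusted p = 0.599, edgeR fit), opposite in sign to the 0.41 of *Vip*. *Lifr*, the receptor for leukaemia inhibitory factor, had 2519.6 and 2876 in the controls and 1952.5, 965.6, and 1488 in the mutants, with a log2 fold change of -0.88 (adjusted p = 0.598, edgeR fit). *Ret*, a receptor for ligands of the GDNF family, had 997.8 and 340.4 in the controls and 1691, 883.7, and 1726 in the mutants, with overlapping groups and a log2 fold change of 1.10 (adjusted p = 0.637, edgeR fit). Control replicate 6 was the lowest and *Hif1aCKO* replicate 5 the highest library for both *Ret* and *Vip*. This match was picked after the values were seen, and a link between these genes was not tested. *Chat*, the enzyme that makes acetylcholine, was low, between 12 and 53 counts.

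Of the 15 genes that process and package these precursors 13 were tested, 9 higher and 4 lower, with a median log2 fold change of 0.17 and 0 called. *Scg5*, the chaperone of the convertase PC2, had the highest mean level per length of the list, 227.8 CPKM, with libraries from 92.2 to 371.7. *Chgb*, a granin of dense-core vesicles, had 5514 and 8695 normalized counts in the controls and 776.3, 4732, and 1106 in the mutants. Its difference was -1.69 ± 0.659 on the log2 scale (estimate ± standard error, adjusted p = 0.621, edgeR fit), and *Hif1aCKO* replicate 4 lay far above the other mutants. *Scg3* was lower with a log2 fold change of -0.37 (adjusted p = 0.621, edgeR fit). *Pam*, the enzyme that amidates *Npy*, *Vip*, and several other peptides, had 637.5 and 490.7 in the controls and 639, 788.9, and 933.1 in the mutants, a log2 fold change of 0.48 (adjusted p = 0.670, edgeR fit). *Pcsk2*, the convertase itself, had between 89 and 410 counts, and *Pcsk1* at most 25.

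The receptors through which these peptides act were mostly scarce in these neurons, and all but *Adcyap1r1* had at most 27 counts in any library. Of 24 receptor genes 15 were in the table, 5 of these had fewer than 10 counts in every library, and 4 were tested. *Adcyap1r1*, the PACAP receptor, had at least 418 counts in every library. Its normalized counts were 582.2 and 497.1 in the controls and 531.8, 417.4, and 629.6 in the mutants, and a difference of -0.04 ± 0.223 on the log2 scale (estimate ± standard error, adjusted p = 0.985, edgeR fit). *Npy1r* had 23 counts in control replicate 6, 1 in *Hif1aCKO* replicate 3, and 0 in the other libraries, and *Npy2r* had 21 in control replicate 5, 27 in *Hif1aCKO* replicate 3, and 0 in the others. Like *Penk*, each of these transcripts had counts in 2 of the 5 libraries. A gene at 0 was not detectable at this depth.

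Of 42 other neuropeptide precursors 21 were in the table and 12 were tested, 6 higher and 6 lower, with a median log2 fold change of 0.04 and 0 called. *Adm*, the precursor of the vasodilator adrenomedullin, had the highest mean level, 38.4 CPKM, close to that of *Gal*. It had 656.2 and 462.8 normalized counts in the controls and 486.8, 604.1, and 512.8 in the mutants (log2 fold change -0.07, adjusted p = 0.967, edgeR fit).

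**Figure D5:**
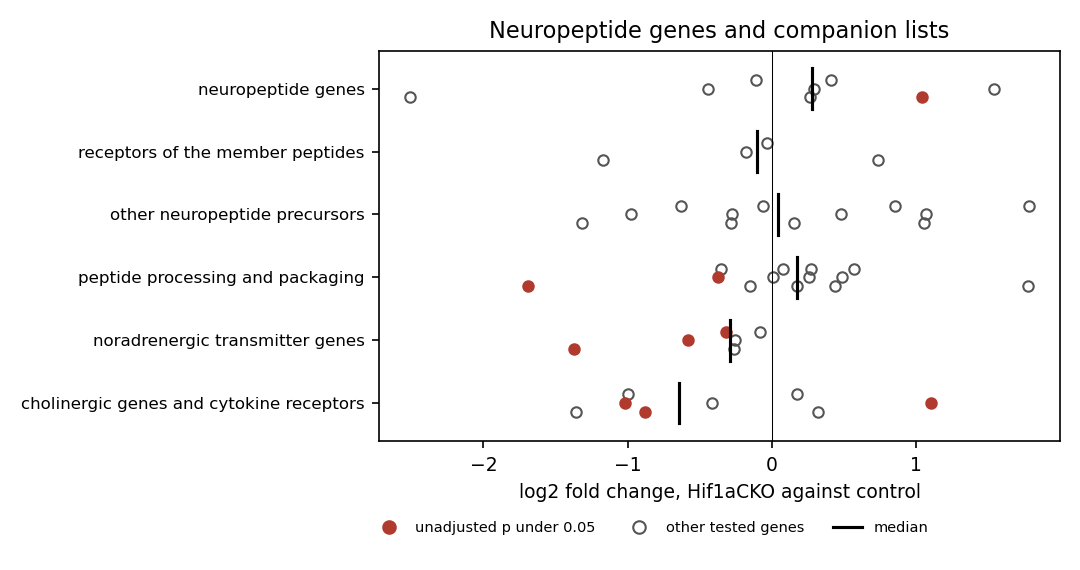
Log2 fold change of *Hif1aCKO* against control for every tested gene of the neuropeptide set and of 5 companion lists, with filled red points for an unadjusted p-value under 0.05, open points for the others, and a black bar at the median of each list. All 6 noradrenergic genes lie below 0, whereas the neuropeptide genes and the processing genes lie on both sides.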

How the data were processed

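The authors trimmed reads with cutadapt (1.18) and Trimmomatic, removed ribosomal and vector reads with bowtie (1.2.2) and SortMeRNA, mapped to GRCm38 with STAR (2.7.0c), and counted reads per gene with Rsubread, leaving out multi-mapping reads. The deposited values are raw counts, 8254211 to 9700887 per library. Genotypes were compared with edgeR (4.0.16; R 4.3.3): filterByExpr, TMM factors from 0.974 to 1.03, quasi-likelihood test, Benjamini-Hochberg adjustment over 15032 genes. Standard errors are the coefficient over the root of F. Calls needed adjusted p-values under 0.05, a mean of 50 or more normalized counts, and log2 fold changes beyond 0.3 in size. Alternatives used DESeq2 (1.42.0), limma-voom (3.58.1), other factors, filters and thresholds, an *Xist* term, and each library left out. Plots used Python 3.11.15 and matplotlib 3.10.9. Exonic lengths and positions came from GENCODE M21, while the authors used M8. With 2 against 3 libraries an exact permutation test of 1 gene cannot go below 0.1. In simulated counts the edgeR test called 107 of 200 genes changed 4-fold and 23 of 200 changed 2-fold, with 4 and 0 unchanged genes. DESeq2 called 121 and 61, with 27 and 15 unchanged genes. Genes were named by rule: all members, up to 4 genes per companion list with unadjusted p-values under 0.05, the most abundant gene per list, and nearest patterns. Genes outside it (*Pam*, *Pcsk1*, *Pcsk2*, *Chat*, *Npy1r*, *Npy2r*, and the markers) were chosen after their values were seen. The members and lists were chosen with earlier results of these data known. The p-values set the difference between genotypes against the spread between these libraries. The authors used littermates but the litter of each library is not given, so whether the libraries are independent is not known.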

Additional observations from a re-analysis of the deposited data

How the results depend on the processing

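No paired analysis was possible because the groups share only replicate number 5. The number of genes called, 0 with edgeR's quasi-likelihood test (1153 at an unadjusted p-value under 0.05), was 60 with DESeq2 and 40 with the likelihood ratio test, and 0 to 4 with 1 library removed. The 4 calls came without control replicate 5, where the lone control is assumed to vary like the mutants. Neuropeptide genes called were 1 with DESeq2 and 1 with the likelihood ratio test (*Cartpt* in both), and 0 otherwise. Of the noradrenergic genes, 1 was called by the likelihood ratio test. The cause of these differences was not tested. More neuropeptide genes were without overlap whenever a library was left out, since fewer libraries overlap less. The share over all genes was not computed for those settings, so the rise says nothing about the neuropeptide genes. The fold change reversed for *Gal* (-0.109 without control replicate 6, -0.0477 without *Hif1aCKO* replicate 4) and *Sst* (0.487 without control replicate 6), over ranges of -0.109 to 0.747 and -0.533 to 0.487 with 1 library removed. No reversal occurred under the other 10 settings for the 8 genes. With 10 counts required in every library, *Calca* and *Adcyap1* gave no value. The adjusted p-value of *Cartpt* ranged from 0.000168 to 0.848 over the settings that kept all libraries.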
